A study of Danio rerio with 14 samples.

Results

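Transcripts of 5 genes that act on damaged DNA or in the response to damage were followed over the day in the zebrafish pineal gland: ddb2, cry-dash, cpdp, plk3 and bokb. They were picked for their level in light against darkness and their daily course on these same arrays, so their values are given as a description, without a test. Probe sets were taken where the platform annotation gave one of these symbols and no other. This gave 6 of 15502 probe sets and 5 of 8792 genes. Both cry-dash probe sets were kept, and the other genes had a single one each. The dimmer cry-dash probe set had a mean signal of 19.0 and fell under the filter on dim probe sets, a mean of 29.2, so 5 of the 6 were fitted. Each of these 5 also had a DD mean above that filter, the lowest being 29.7 for ddb2.

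The fish were adults of 3 to 6 months, males and females, of the line Tg(aanat2:EGFP)Y8. In this line the aanat2 promoter drives a green fluorescent protein in the pineal gland, and every group carried it. All were raised at 28 °C with lights on for 12 h of each day and off for 12 h. The LD group stayed in this cycle, and the DD group was held in constant darkness over the cycle in which glands were taken; how long it had been dark by then is not given in the sources used here. Zeitgeber time (ZT) is the time in hours since lights on. There were 7 arrays for LD and 7 for DD. They came from ZT2 and then every 4 h until ZT22, with an extra collection, ZT2b, that has no explanation in the labels and was taken as a repeat of ZT2. An array held RNA of 12 pooled glands, amplified in 2 rounds, so there is a single pool for most times and conditions. No extraction, hybridisation or scan date was used, and a batch that ran with the light condition cannot be told apart from it. Values are MAS5 signals, a linear measure of probe brightness with no unit.

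Ultraviolet light joins neighbouring pyrimidines in DNA. Fish, unlike placental mammals, keep photolyases, flavoproteins that use the energy of visible light to split such lesions directly. The product of cpdp is the photolyase of cyclobutane pyrimidine dimers, that of cry5 the photolyase of 6-4 photoproducts, and cry-dash encodes a related protein that in other species acts on dimers in single-stranded DNA. Lesions are also cut out by nucleotide excision repair, where in mammals DDB2 binds the lesion in complex with DDB1 and brings in the CUL4 ubiquitin ligase. The kinase PLK3 is activated by stress and DNA damage in mammalian cells, and BOK is a pore-forming, death-promoting member of the BCL2 family. In zebrafish, transcripts of photolyases and of ddb2 are known to be raised by light.

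All 5 genes had a higher mean signal in LD than in DD. In LD, the damage recognition gene ddb2 and the photolyase relative cry-dash had a sharp maximum at ZT2, the photolyase gene cpdp a maximum at ZT6, and the kinase gene plk3 and the death gene bokb a high level through the day. The fitted rhythm was larger in LD than in DD for all 5, and ddb2, cry-dash and bokb had their highest DD signals at ZT2b and ZT2 too. For plk3 the highest DD signal was at ZT2, 368.4, but its repeat at ZT2b, 206.8, was below those of ZT6, ZT14 and ZT18.

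The signal of ddb2 in LD was 259.1 at ZT2, 312.7 at ZT2b, 74.5 at ZT6, 65.6 at ZT10, 42.1 at ZT14, 41.7 at ZT18 and 102.9 at ZT22. In DD it was 42.4 at ZT2, 44.2 at ZT2b, 35.8 at ZT6, 12 at ZT10, 24.5 at ZT14, 17.7 at ZT18 and 30.9 at ZT22. The early morning pair in LD stood above all 12 other arrays, while the LD arrays of ZT14 and ZT18 lay below the highest DD array, so the conditions overlapped. The mean in LD was 128.4 ± 110.7 and in DD 29.7 ± 12 (SD, n = 7 arrays each), and the large spread in LD came with the time of day. The LD signal at ZT2, averaged over both collections, was 3.84 times that at ZT6. Before lights on the level was already higher than in the middle of the night: the signal at ZT22 was 2.47 times that at ZT18 in LD and 1.75 times in DD. Each of these signals came from a single pool, so the ratios have no replicate error, and those in DD were low.

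The brighter cry-dash probe set read 258.5 at ZT2, 252.2 at ZT2b, 60.8 at ZT6, 44.3 at ZT10, 18.5 at ZT14, 36.7 at ZT18 and 76.0 at ZT22 in LD. The DD signals were 42.7 at ZT2, 63.2 at ZT2b, 42 at ZT6, 25.1 at ZT10, 14.3 at ZT14, 11.0 at ZT18 and 34.1 at ZT22. Again the early morning LD arrays were the highest of all, and only 3 LD arrays stood above the highest DD array. Its LD mean was 106.7 ± 103.1, against 33.2 ± 18.2 in DD (SD, n = 7 arrays each). At ZT2 the LD signal was 4.20 times that at ZT6, the steepest early decline of the 5 genes. In DD the highest signal was 5.75 times the lowest, the widest range of the 5 genes in darkness, and ZT22 was 3.1 times ZT18. Of the DD signals, 2 were under 14.9, the constant added before taking logs, so ratios among them are uncertain.

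The dimmer cry-dash probe set read 42.9 at ZT2, 44.6 at ZT2b, 21.7 at ZT6, 14.6 at ZT10, 15.4 at ZT14, 5.9 at ZT18 and 27.6 at ZT22 in LD. In DD it read 15.9 at ZT2, 3.9 at ZT2b, 25.1 at ZT6, 4.6 at ZT10, 13.3 at ZT14, 12 at ZT18 and 18.2 at ZT22. Its 2 highest arrays were also LD ZT2 and LD ZT2b, but LD exceeded DD at only 5 of 7 collections, and the DD signals of ZT2 and ZT2b differed 4.08-fold.

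For cpdp, the LD signals were 90.8 at ZT2, 86.1 at ZT2b, 152.8 at ZT6, 79.8 at ZT10, 43.1 at ZT14, 52.5 at ZT18 and 60.2 at ZT22. Its DD signals were 30.8 at ZT2, 45.4 at ZT2b, 56.3 at ZT6, 17.5 at ZT10, 48.2 at ZT14, 55.1 at ZT18 and 41.5 at ZT22. This photolyase gene alone of those followed had its highest LD array at ZT6 rather than ZT2 or ZT2b, and that array was a single pool. At ZT14 and ZT18 its LD signal was below the DD signal. It averaged 80.8 ± 36.4 in LD, against 42.1 ± 13.9 in DD (SD, n = 7 arrays each). The LD signal at ZT2 was 0.579 times that at ZT6.

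The signal of plk3, the brightest of the 5 probe sets, was 1147.7 at ZT2, 911.7 at ZT2b, 696.9 at ZT6, 881.0 at ZT10, 613.3 at ZT14, 394.7 at ZT18 and 362.6 at ZT22 in LD. In DD it was 368.4 at ZT2, 206.8 at ZT2b, 287.4 at ZT6, 148.3 at ZT10, 307.9 at ZT14, 305.2 at ZT18 and 170.8 at ZT22. In LD the kinase stayed high through the day and the first part of the night and was lowest at its end, and 6 LD arrays stood above the highest DD array. The exception was LD ZT22, which lay just under DD ZT2. Means were 715.4 ± 286.0 in LD and 256.4 ± 81.7 in DD (SD, n = 7 arrays each). Unlike ddb2, it was not higher before lights on: ZT22 was 0.919 times ZT18 in LD and 0.56 times in DD, again in single pools.

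For bokb, LD signals were 402.4 at ZT2, 497.4 at ZT2b, 305.8 at ZT6, 297.7 at ZT10, 121.0 at ZT14, 130.4 at ZT18 and 227.0 at ZT22. The DD signals were 104.1 at ZT2, 145.9 at ZT2b, 90.7 at ZT6, 56.2 at ZT10, 77.8 at ZT14, 98.5 at ZT18 and 73.1 at ZT22. It was high at every daytime LD collection and low at ZT14 and ZT18, and those 2 LD arrays lay below the highest DD array. The LD mean was 283.1 ± 137.6, against 92.3 ± 28.7 in DD (SD, n = 7 arrays each). ZT22 was 1.74 times ZT18 in LD and 0.742 times in DD.

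**Figure D1:**
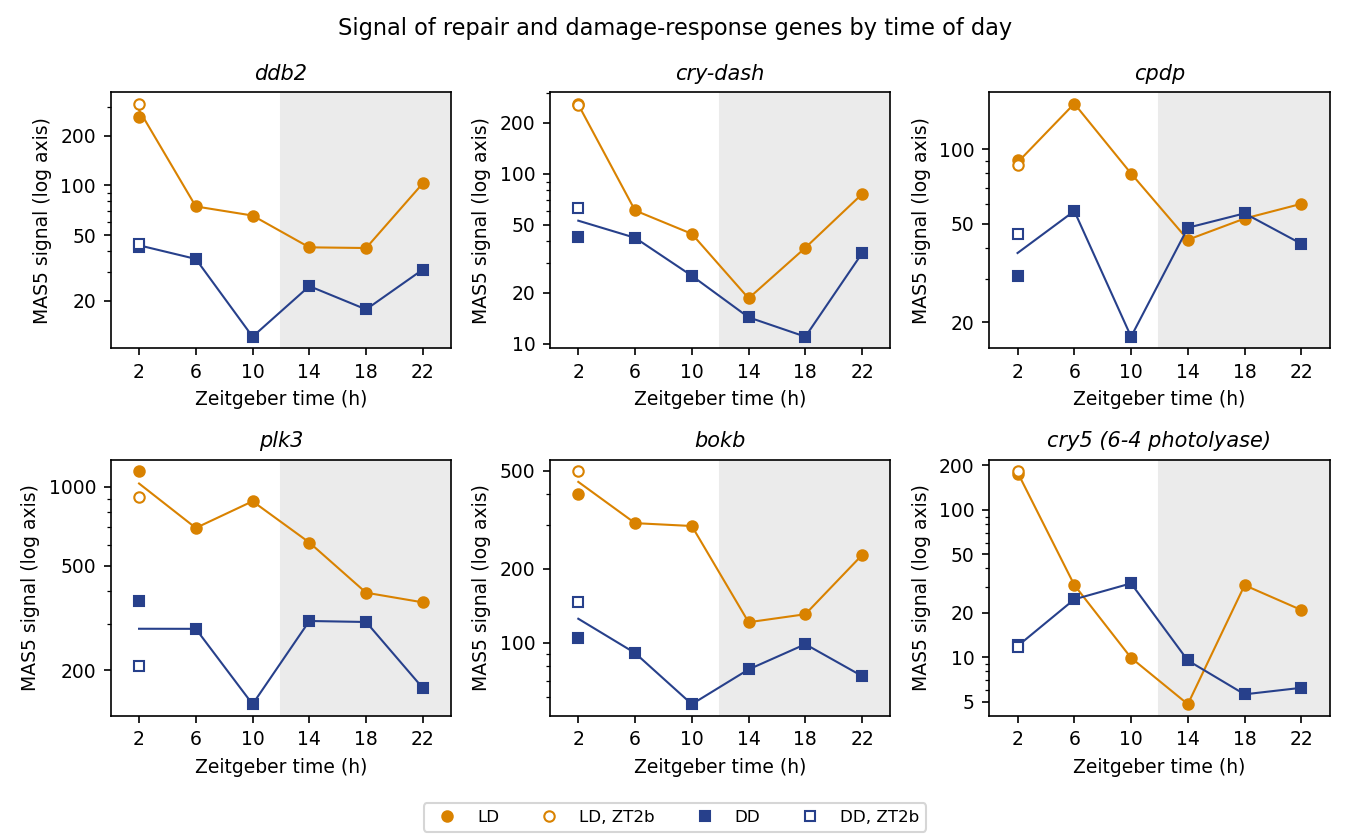
MAS5 signal (log axis) against Zeitgeber time in hours for ddb2, cry-dash, cpdp, plk3, bokb and cry5, the brighter probe set where a gene has 2 of them. Each point is 1 array, orange circles LD and blue squares DD, open symbols ZT2b, lines join the points with ZT2 and ZT2b averaged, and grey marks the dark hours of the LD cycle. In ddb2, cry-dash, plk3, bokb and cry5 the LD arrays of ZT2 and ZT2b are the highest of all 14, while cpdp is highest at LD ZT6.

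Pairs of arrays from the same collection were then set side by side. LD exceeded DD at 7 of 7 collections for ddb2, cry-dash, plk3 and bokb, and at 5 of 7 for cpdp. Of all 6117 genes tested, 8.5% had LD above DD at every collection. At ZT2, ZT2b and ZT10 the signal of ddb2 in LD was 6.11, 7.07 and 5.42 times that in DD, and at ZT6 2.08 times. At ZT14, ZT18 and ZT22, dark in both conditions, it was 1.72, 2.36 and 3.33 times. For cry-dash the ratio of LD to DD was 6.05 and 3.99 at ZT2 and ZT2b and between 1.29 and 3.34 at the other 5 collections.

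The other 3 genes had their highest ratio at ZT10. There LD was 4.56 times DD for cpdp, 5.94 times for plk3 and 5.30 times for bokb, and this height came with the DD array rather than the LD array. The DD array of ZT10 was the lowest of the DD arrays for ddb2, cpdp, plk3 and bokb, as it was for 33.2% of all genes tested. It stood apart in other measures. Its mean correlation across probe sets with the other DD arrays was 0.913, against 0.951 to 0.958 for those. The geometric mean signal of its poly-A spikes, added before amplification, was 1713, against 100.5 to 268.5 on the other 13 arrays, and its GAPDH 3'/5' ratio, a sign of RNA integrity, was 16.7, against 5.09 to 12.9. The part of this in the ZT10 values was not tested. The fitted differences and rhythm sizes of the 5 genes below that use it are therefore also given without that array. In the fits with time as a block, the LD array of ZT10 then has no partner. It thus drops out of the LD minus DD values too. The rhythm sizes over both conditions still use that LD array. The fitted peaks are given only with the DD array of ZT10.

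**Figure D2:**
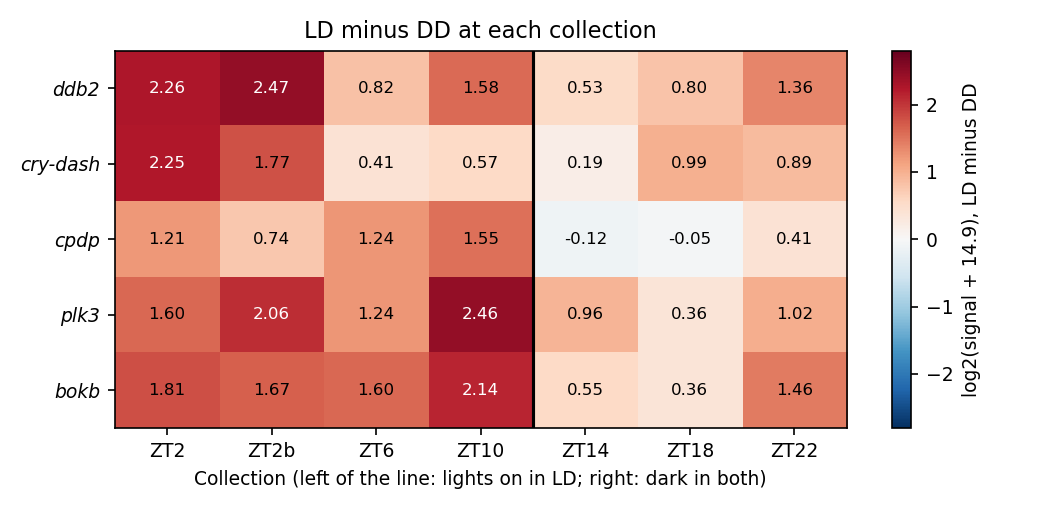
LD minus DD at each collection (columns, in order of time, ZT2b beside ZT2) for the 5 genes (rows), as a difference of log2(signal + 14.9), red above 0 and blue below. The black line parts the hours with lights on in LD from the hours that were dark in both conditions. The only values below 0 are those of cpdp at ZT14 and ZT18.

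On the log2 scale, with 14.9 added to each signal and the time of collection as a block, LD minus DD was 1.40 ± 0.22 for ddb2 (SE). It was 1.39 ± 0.22 for plk3, 1.37 ± 0.20 for bokb, 1.01 ± 0.22 for cry-dash and 0.71 ± 0.20 for cpdp. The median of the 5 was 1.37, and that of all genes tested was -0.0045, with -0.64 and 0.58 as its 5th and 95th percentiles. Of all genes tested, 9.91% were called higher in LD and 10.3% lower by limma at an adjusted p under 0.05. These shares are background for the values of the 5 genes, which were chosen on this contrast. Leaving out the DD array of ZT10 also took its LD pair out of this contrast. The differences were then 1.37 for ddb2, 1.09 for cry-dash, 0.57 for cpdp, 1.21 for plk3 and 1.24 for bokb. No gene of the 5 had every LD array above every DD array, a pattern met by 2.14% of all genes.

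By day, with lights on in LD alone, LD minus DD was 1.84 ± 0.23 for plk3, 1.81 ± 0.20 for bokb, 1.78 ± 0.25 for ddb2, 1.25 ± 0.28 for cry-dash and 1.18 ± 0.18 for cpdp (SE). Without the DD array of ZT10 they were 1.63 for plk3, 1.69 for bokb, 1.85 for ddb2, 1.48 for cry-dash and 1.06 for cpdp. All 5 lay above 0.67, the 95th percentile of all genes in this contrast, where 5.15% of genes were called higher and 4.07% lower. The 5 genes were chosen for light against darkness on these arrays, so their place above it is a description and no test. At night the differences were 0.90 ± 0.29 for ddb2, 0.79 ± 0.23 for bokb, 0.78 ± 0.27 for plk3, 0.69 ± 0.33 for cry-dash and 0.08 ± 0.20 for cpdp. For every gene but cpdp the LD level at night thus stayed above the DD level in hours that were dark in both conditions, and the night value of cpdp was smaller than its error. At night 1.28% of all genes were called higher and 1.6% lower.

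The day difference exceeded the night difference by 1.11 ± 0.27 for cpdp, 1.06 ± 0.35 for plk3, 1.02 ± 0.31 for bokb, 0.88 ± 0.38 for ddb2 and 0.56 ± 0.43 for cry-dash (SE). The value for cry-dash was near its error, and was 0.31 without either array of ZT14, 0.32 without DD ZT2 and 0.84 without either array of ZT6. Without the DD array of ZT10 these differences were 0.98 for cpdp, 0.85 for plk3, 0.91 for bokb, 0.95 for ddb2 and 0.78 for cry-dash. No gene of the 6117 passed limma's adjusted threshold for this difference between contrasts, 0%, and 359 had an unadjusted p under 0.05, where that share of all genes would be 305.85.

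**Figure D3:**
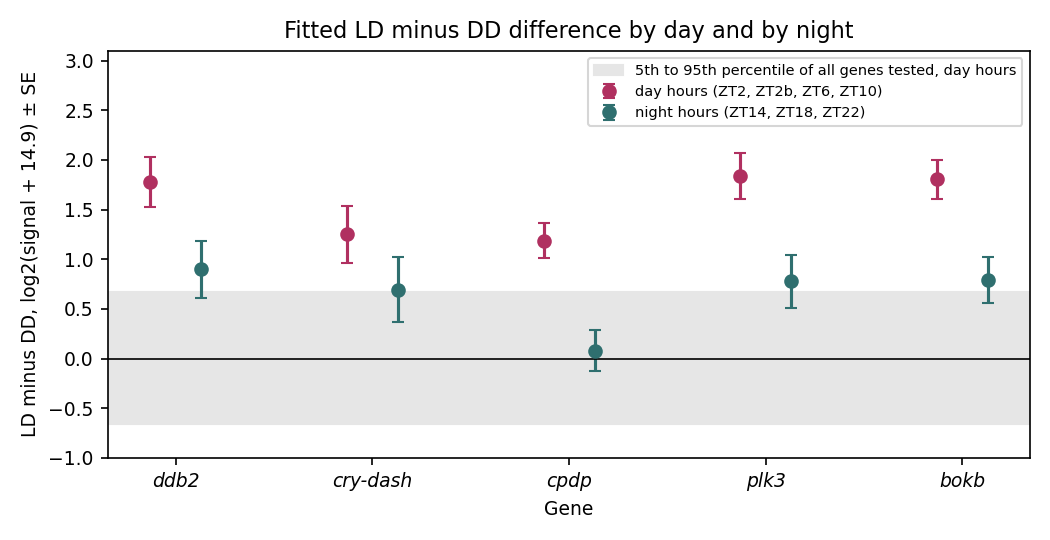
Fitted LD minus DD of the 5 genes, as a difference of log2(signal + 14.9), for day hours (4 collections, red) and night hours (3 collections, green), with bars for the SE from limma. The grey band holds the 5th to 95th percentile of all genes in the day contrast, -0.66 to 0.67. All 5 day values, of genes chosen for light against darkness, lie above it, and the night value of cpdp, 0.08, lies near 0.

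Rhythm size was the fitted distance from trough to peak of a 24-h cosine on the log2 scale, which noise alone makes larger than 0. Over both conditions it was 2.00 ± 0.31 for cry-dash, 1.58 ± 0.31 for ddb2, 1.09 ± 0.26 for bokb, 0.60 ± 0.36 for plk3 and 0.48 ± 0.30 for cpdp (SE). Of all genes, 4.9% were called rhythmic. The median size of all genes over both conditions was 0.34 and the 95th percentile 0.98, which plk3 and cpdp did not reach. Fitted peaks were at 1.99 h after lights on for ddb2, 2.43 h for cry-dash, 3.13 h for bokb, 4.1 h for cpdp and 5.94 h for plk3. Fitted in LD alone, the size was 2.68 ± 0.37 for cry-dash, 2.28 ± 0.39 for ddb2 and 1.75 ± 0.31 for bokb (SE). It was 1.31 ± 0.47 for plk3 and 1.23 ± 0.36 for cpdp. The median of all genes in LD was 0.43 and the 95th percentile 1.30, which plk3 only just passed and cpdp did not reach. In DD alone the size was 1.38 ± 0.38 for cry-dash, 0.88 ± 0.39 for ddb2, 0.61 ± 0.31 for bokb, 0.45 ± 0.38 for cpdp and 0.16 ± 0.48 for plk3 (SE). There the median of all genes was 0.42 and the 95th percentile 1.08, which only cry-dash exceeded. In DD the fitted peaks of cry-dash, ddb2 and bokb lay in the first hours after the time of lights on, at 3.38, 1.69 and 0.48 h. Those of cpdp and plk3, with sizes near or under their SE, lay at 20.3 and 20.9 h. Without the DD array of ZT10 the size in DD was 1.39 for cry-dash, 0.73 for ddb2, 0.64 for plk3, 0.40 for cpdp and 0.39 for bokb. Over both conditions, without that array, it was 2.08 for cry-dash, 1.54 for ddb2, 1.06 for bokb, 0.86 for plk3 and 0.61 for cpdp. The size of plk3 over both conditions was 0.40 without LD ZT18 and 0.90 without DD ZT18, and that of cpdp 0.32 without LD ZT6 and 0.75 without DD ZT18.

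The morning pattern itself, with both LD arrays of ZT2 and ZT2b above every other array, was met by 4 of the 5 genes and by 2.86% of all genes. As the 5 were chosen with their daily course known, this share is background and no test. Where ZT2 and ZT2b are taken as repeats, their signals in LD differed by a factor between 0.809 for bokb and 1.26 for plk3. The same pair in DD differed by a factor between 0.676 for cry-dash and 1.78 for plk3, and the early morning LD values of ddb2 and cry-dash exceeded all other arrays by more than the spread within either pair.

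Across the 14 arrays the courses of ddb2 and cry-dash were the most alike of the 5 (Pearson r of log2 values 0.94), with an r of 0.98 over the 7 LD arrays and 0.77 over the 7 DD arrays. The r of ddb2 with bokb was 0.92 over all arrays and 0.73 within DD, and that of plk3 with bokb 0.86 and 0.42. The least alike over all arrays were cry-dash and cpdp, with an r of 0.52, and -0.09 within DD. Within DD cry-dash and plk3 were less alike still, at -0.18. These arrays share the time course and the light condition, and the r values describe them only.

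Among all other genes, those with the course most like ddb2 were cry-dash, mid1ip1l (r = 0.93), bokb, paics, an enzyme of purine synthesis (0.91), and cry5 (0.91, its dimmer probe set). Most like cry-dash were taok1b (0.95), arhgap12b (0.94), ddb2, letm2 (0.93) and ppp1r13ba (0.92). For bokb they were polr2a, the large subunit of RNA polymerase II (0.96), ptpn11b (0.92), ddb2, the export factor alyref (0.92) and riok1 (0.91). The genes nearest to plk3 were adssl (0.94), the histone demethylase gene kdm1a (0.92), ddx55 (0.92), lcmt1 (0.90) and elac1 (0.90), and those nearest to cpdp were drg1, gfm1, hsd17b8 (0.92 each), ruvbl1 and ctps1a (0.91 each). None of the other 4 genes was among those nearest to cpdp or to plk3.

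The 6-4 photolyase gene cry5 completes the photolyases. Its brighter probe set read 176.1 at ZT2, 183.0 at ZT2b, 30.9 at ZT6, 9.9 at ZT10, 4.8 at ZT14, 30.8 at ZT18 and 20.9 at ZT22 in LD. Its DD signals in the same order were 12, 11.7, 24.7, 31.7, 9.5, 5.6 and 6.2. The dimmer one read 78.0, 83.2, 35.6, 39.4, 25, 27.1 and 22.3 in LD in that order, and 27.0, 28.9, 24.1, 12.7, 25.8, 17.7 and 29.2 in DD. On both, the LD arrays of ZT2 and ZT2b were the highest of all 14, as for cry-dash and ddb2, and from ZT6 on the conditions overlapped. Both probe sets passed the filter on dim probe sets only through LD, where they were high, with DD means of 14.5 and 23.6, so a call is no support here. The brighter one was not called by day (LD minus DD 1.25 ± 0.53 SE, limma adjusted p = 0.147), but was without either array of ZT10 (1.98, adjusted p = 0.0268 without LD ZT10 and 0.0273 without DD ZT10). The dimmer one was called by day (0.92 ± 0.20, adjusted p = 0.018), and that call was lost without LD ZT2 (adjusted p = 0.051), LD ZT2b (0.0663) or DD ZT2b (0.0619), and without both ZT2b arrays (0.141).

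Whether other repair and damage genes stood higher in LD was asked with 9 gene lists, of 214 genes apart from the 5. Of these, 124 were on the array and 90 were tested, each by its brightest probe set. LD minus DD was called higher for 9 of the 90, or 10.0%, and lower for 7, or 7.78%, which are close to the shares of all genes given above, and the median difference was -0.01. By day, 6 were higher (6.67%, against 5.15% of all genes) and 1 lower (1.11%, against 4.07%). At night 2 were higher (2.22%, against 1.28%) and 1 lower (1.11%, against 1.6%), and none passed for the difference between day and night, where 2 had an unadjusted p under 0.05. The 24-h rhythm passed for 2 of the 90 (2.22%, against 4.9%), and 14 of the 90 had an unadjusted p under 0.05, as did 1108 of all 6117 genes.

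Nucleotide excision repair, with 18 genes tested, had 2 higher and 2 lower in LD. The partner of ddb2, ddb1, was higher in LD, at 483.2 ± 64.4, against 243.3 ± 20.9 in DD (SD, n = 7 arrays each). Its LD arrays, from 436.8 to 605.3, lay above all DD arrays, from 223.3 to 284.9, and LD minus DD was 0.94 ± 0.11 (SE, limma adjusted p = 0.000302), with 0.85 on another probe set. Its difference was 1.0 ± 0.15 by day and 0.86 ± 0.17 at night, and it had no called rhythm (adjusted p = 0.922). The night call of ddb1 (adjusted p = 0.0273) was lost without any single array of ZT14, ZT18 or ZT22 (0.118 to 0.152), and the day call (0.00373) without both ZT2b arrays (0.0514). The helicase gene ercc3, which opens DNA around a lesion, was higher in LD at 128.8 ± 27.8, against 81.7 ± 18.7 in DD, with a difference of 0.58 ± 0.12 (adjusted p = 0.00626) and 0.78 ± 0.14 by day (adjusted p = 0.00819; 0.0867 without both ZT2b arrays).

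Lower in LD was rad23b, a partner of the damage sensor XPC, at 38.1 ± 3.14, against 74.5 ± 9.86 in DD, with no overlap of the arrays and a difference of -0.75 ± 0.11 (adjusted p = 0.00117). It was lower by day (-0.76 ± 0.15, adjusted p = 0.0132), a call lost without both ZT2b arrays (0.0827). At night the difference was -0.74 ± 0.18 (adjusted p = 0.0481), a call lost without 12 of the single arrays (0.0508 to 0.25). The night call was also lost with median centring or quantile normalisation (0.055 each), with no filter (0.101) and without both ZT2b arrays (0.104). The scaffold gene of the ubiquitin ligase, cul4b, was lower at 171.1 ± 23.8, against 237.2 ± 40.2 in DD (-0.43 ± 0.13, adjusted p = 0.0332), a call lost without either array of ZT2b, ZT6, ZT10, ZT14 or ZT22 (0.0574 to 0.0844).

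In base excision repair, with 11 genes tested, 2 were higher and none lower. The flap endonuclease gene fen1 had 127.2 ± 16.8 in LD, with every array above those in DD at 62.6 ± 14.3 (0.89 ± 0.11, adjusted p = 0.000501). Its difference was 0.86 ± 0.16 by day and 0.93 ± 0.18 at night (adjusted p = 0.00773 and 0.025), the day call being lost without both ZT2b arrays (0.0761) and the night call without any array of ZT14, ZT18 or ZT22 (0.0914 to 0.157). The chromatin protein gene hmgb1a was called higher by 0.30 ± 0.09 (adjusted p = 0.0368), a call lost under 13 of the alternatives (0.0699 to 0.144).

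Among 16 genes of double-strand break and crosslink repair, 2 were higher and 1 lower. The end-binding subunit gene xrcc6 had 153.6 ± 39.7 in LD and 105.3 ± 20.5 in DD (difference 0.47 ± 0.12, adjusted p = 0.0153). The ubiquitin ligase gene rnf8 was higher by 0.44 ± 0.14 (adjusted p = 0.0475), a call lost without 10 of the single arrays (0.066 to 0.129). The rnf8 call was also lost with quantile normalisation (0.0533), with no filter or no replicate block (0.0651 each) and without both ZT2b arrays (0.147). The histone variant gene h2ax, whose product marks breaks, was lower at 172.4 ± 25.9, against 243.2 ± 31.7 in DD (-0.46 ± 0.11, adjusted p = 0.0116; 0.063 without both ZT2b arrays). The list of translesion synthesis and direct reversal had 8 genes tested, none of them a direct reversal gene. Of these, ube2v1 was higher at 664.1 ± 79.2, with no overlap with DD at 454.2 ± 70.8 (0.54 ± 0.12, adjusted p = 0.00794). Its day call (0.57 ± 0.16, adjusted p = 0.0466) was lost without any single array (0.0529 to 0.118). That call was also lost with no filter (0.0578) and without both ZT2b arrays (0.193). The related gene ube2v2 was not called (0.35 ± 0.12, limma adjusted p = 0.0543). The single mismatch repair gene tested, pms1, was not called, nor was plk2b, the single other polo-like kinase gene tested, which read 41.0 ± 16.5 in LD and 50 ± 14.2 in DD.

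The checkpoint and p53 list had 21 genes tested, with 2 higher and 3 lower. The growth arrest gene gadd45ga averaged 1088 ± 245.5 in LD and 695.4 ± 232.8 in DD, with LD minus DD of 1.16 ± 0.16 by day (adjusted p = 0.00245) and 0.01 ± 0.18 at night, and its day call held under every alternative tried (0.00175 to 0.044). Over all hours its call (0.67 ± 0.19, adjusted p = 0.0277) was lost without any of 7 single arrays of ZT2, ZT2b, ZT6 and ZT10 (0.0534 to 0.0663). The ubiquitin ligase gene of p53, mdm2, passed by day (0.83 ± 0.17, adjusted p = 0.0154) but not without LD ZT2b (0.0526) or DD ZT2b (0.0507). The p53 relative tp63 was higher by 0.68 ± 0.20 (adjusted p = 0.0325), at 40.8 ± 13.2 in LD and 20.7 ± 11.0 in DD, and passed the filter only through its LD signal, so the call is no support for a difference. It was lost without both ZT2b arrays (0.0663) and without any of 7 single arrays (0.0522 to 0.0919).

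Lower in LD were the cell cycle phosphatase gene cdc25b, at 98.9 ± 19.1, against 185.1 ± 76.4 in DD (-0.74 ± 0.17, adjusted p = 0.0107), gadd45ba (-0.65 ± 0.18, adjusted p = 0.0254) and the phosphatase gene ppm1db (-0.32 ± 0.10, adjusted p = 0.0431). The calls of gadd45ba and ppm1db were lost without most single arrays. That of ppm1db was also lost with median centring (0.0724), quantile normalisation (0.0591) and no filter (0.103). The cyclin gene ccng2 was rhythmic with a size of 1.25 ± 0.21 and a peak at 13.9 h, in the early night and far from the morning peaks of ddb2 and cry-dash (adjusted p = 0.00424; 0.132 in an F test over the 6 times).

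In the BCL2 family, 13 genes apart from bokb were tested. None was called higher and 1 lower, the pore-forming relative baxa, at 132.4 ± 17.3 in LD and 178.2 ± 22.2 in DD (-0.39 ± 0.12, adjusted p = 0.0328). The baxa call was lost without 10 of the single arrays (0.0545 to 0.0874), with no filter (0.0584) and without both ZT2b arrays (0.0771). The difference of bokb thus had the opposite sign to that of baxa. A rhythm was called for bcl2l13, with a size of 1.06 ± 0.21 and a peak at 4.08 h (adjusted p = 0.0149). That call was lost without LD ZT14 (0.0557), LD ZT18 (0.056) or both ZT2b arrays (0.0612), and in an F test over the 6 times (0.258).

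**Figure D4:**
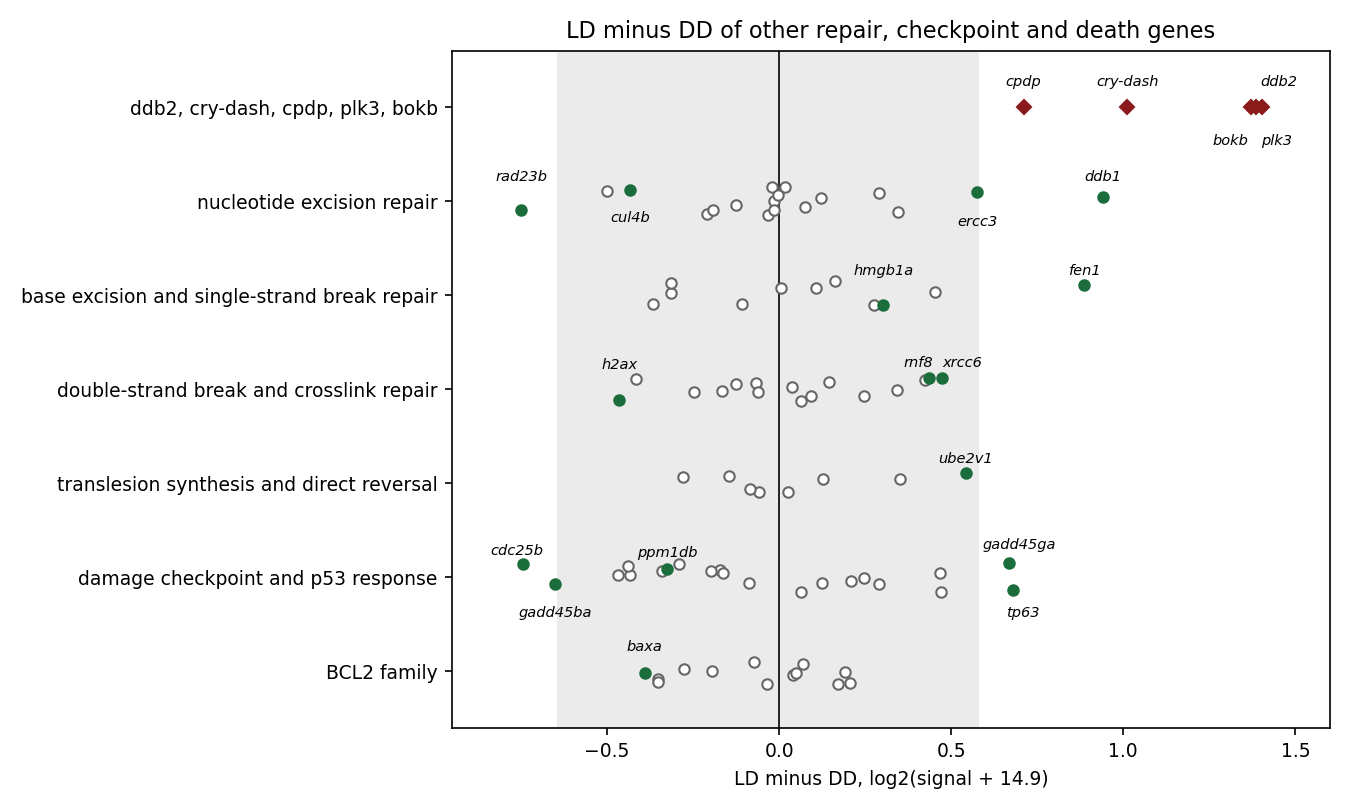
LD minus DD, as a difference of log2(signal + 14.9), for the 5 genes (red diamonds, top) and for the tested genes of 6 repair, checkpoint and death lists (circles), filled green where called at an adjusted p under 0.05. The grey band holds the 5th to 95th percentile of all genes, -0.64 to 0.58. The 5 genes, chosen for light against darkness, lie to its right, and most list genes lie within it.

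In the same samples, per2, a clock gene that light induces, had LD minus DD of 2.36 ± 0.34 by day (adjusted p = 0.00331) and cry1a 1.74 ± 0.28 (adjusted p = 0.00524). The day differences of plk3, bokb and ddb2 on the same scale were close to that of cry1a. The night values of these genes lay further from that of cry1a, but the gaps were not tested. At night LD minus DD was 0.09 ± 0.33 for cry1a and -0.79 ± 0.39 for per2, neither of them called. For plk3, bokb and ddb2 it was 0.78 ± 0.27, 0.79 ± 0.23 and 0.90 ± 0.29. For cry-dash it was 0.69 ± 0.33, and for cpdp 0.08 ± 0.20, close to that of cry1a. The PAR bZIP factor tefa was higher over all hours by 0.83 ± 0.17 (adjusted p = 0.00497, but 0.151 with no replicate block, that is with no term for the time of day). Unlike per2 and cry1a, tefa was not called by day (0.67 ± 0.22, limma adjusted p = 0.0725), and its night difference was larger, 1.05 ± 0.25. It had a called rhythm with a size of 2.02 ± 0.23 (limma adjusted p = 0.000156).

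The make-up of the dissected tissue was checked by marker lists. Of 12 pineal photoreceptor markers 6 were on the array, none was at 0, and their summed signal was 23254 to 46090 in LD and 21386 to 37367 in DD, with exorh, the pineal opsin, at 12294 ± 1611 in LD and 11152 ± 1879 in DD. Of these 6, 1 was called higher in LD, the transcription factor gene otx5, at 231.8 ± 44.5 in LD and 100.6 ± 18 in DD, with no overlap of the arrays. The red cell genes moved with the light condition: all 5 tested were called lower in LD, with sums of 7174 to 12213 in LD and 9254 to 18381 in DD. Most of these sums was hbaa1, at 8224 ± 1812 in LD and 11994 ± 2254 in DD. The globin gene hbba2 differed more, at 135.0 ± 42.5 in LD and 1523 ± 679.7 in DD, with no overlap of the arrays. Leukocyte markers were lower for 3 of 9 tested, with sums of 3811 to 5945 in LD and 4491 to 9432 in DD, and connective tissue markers for 1 of 5, with 1692 to 2211 in LD and 2195 to 3641 in DD. Glial markers were called higher for 1 and lower for 2 of 6, neuronal markers higher for 2 and lower for 1 of 8, myelin markers lower for 1 of 3, and vessel, skin and muscle markers for none of 3 each. The part of these markers in the values of ddb2, cry-dash, cpdp, plk3 and bokb was not tested, and in such pools fewer cells of a type and less RNA per cell cannot be told apart. Median signals were 44.8 ± 2.56 in LD and 46.4 ± 2.30 in DD (SD, n = 7 arrays each). The hybridisation spikes, a technical control, were brighter in LD. Their geometric mean signal was 522.7 ± 66.7 in LD, from 438.2 to 652.8 (SD, n = 7 arrays). In DD without ZT10 it was 377.9 ± 43.9, from 325.3 to 451.7 (SD, n = 6 arrays), and on DD ZT10 642.6. The part of this in the LD minus DD values was not tested.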

How the data were processed

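The deposited values are linear intensities, called MAS5 signals. GCOS and MAS5 are named in the submitters' processing notes, with versions not given in the sources used here. From the values, the mean without 2% of probe sets at each end was 150.04 to 150.05 on every array. Of 15617 probe sets, 115 controls and 1 with an empty cell were left out. Columns of other series numbered 0. Signals were used as log2(signal + 14.9), the 25th percentile, which understates changes of dim probe sets. The 9300 probe sets with a mean above 29.2 (40th percentile) entered lmFit and eBayes (with trend) of limma 3.58.1, run in R 4.3.3, and p-values were adjusted by Benjamini-Hochberg over all of them, with a threshold of 0.05. Models had 6 times of day as a block and light condition, by day and by night where stated, or 24-h cosine and sine terms. Per gene, the brightest probe set stood for it. P-values therefore rest on how far pools lay from the model. The fit was run on simulated data with independent noise on each array. Those data held no outlying array and no batch, so the run cannot speak to either.

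The 5 genes and the lists of repair, checkpoint, death, light-induced and marker genes were chosen with earlier results of these data known. Named were the 5 genes, cry5, called genes of each list (at most 6 per list and fit) and, for each of the 5, the 5 genes with the highest r. No sequence of these genes was used here, so promoters were not analysed here. Symbols came from the platform annotation, which gave 1 symbol for 10794 probe sets. Alternatives were other added constants, normalisations, filters, variance priors, models of time and arrays left out. Python 3.11.15, pandas 2.3.3, numpy 2.4.6 and matplotlib 3.10.9 handled tables and figures.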

Additional observations from a re-analysis of the deposited data

Results flagged for a closer look

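In 60 sets of 7 arrays, 1 gene in 1 condition each, 3 had an end array far from the rest by Dixon's ratio of gap to range (critical value 0.568), and chance flags about 1 in 20. The LD array of ZT6 was the lowest LD array for cul4b, with a signal of 126.2 and a ratio of 0.568, just over that value. The DD array of ZT10 was the lowest DD array for ube2v1, with a signal of 307.0 and a ratio of 0.667, and for gadd45ba, with a signal of 147.2 and a ratio of 0.577. None of these sets was of ddb2, cry-dash, cpdp, plk3 or bokb, although DD ZT10 was the lowest DD array for 4 of those 5.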

How the results depend on the processing

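For the 5 genes, 487 of 495 alternative values moved by less than 1 residual SD. Many of these could not move, so the count is no measure of how robust the values are. A day difference does not use the night arrays, nor a night difference the day arrays. The fit with no replicate block gave the same differences, and so did leaving out either array of a time with a single pool per condition. With 1 added to signals in place of 14.9, the day difference of ddb2 was 2.19, that of cpdp 1.50, the day minus night difference of cpdp 1.40 and the rhythm size of cry-dash 2.63. Leaving out single arrays gave a night difference of bokb of 0.45 to 1.01 and a day minus night difference of 0.80 to 1.35, both ends of 0.45 and 1.35 coming without either ZT22 array. The night value of cpdp, 0.08, was -0.09 without either ZT22 array. LD minus DD stayed above 0 for all 5 genes in every alternative run, lowest for cpdp at 0.57 without either ZT10 array. The genes were chosen for light against darkness on these same arrays, so the kept sign is no independent support.

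Of the counts over the 90 list genes, 124 of 154 stayed within 1.5 times the value reported. Without both ZT2b arrays, LD minus DD gave 5 higher and 3 lower, day 1 higher and 0 lower, night 0 and rhythm 1. Leaving out single arrays gave 5 to 9 higher and 3 to 9 lower over all hours, 4 to 6 higher and 1 to 2 lower by day, 0 to 3 at night and 1 to 4 rhythmic, the last without DD ZT10. The arrays that moved these counts were those of ZT6 (5 higher, 4 lower), of ZT14 and ZT22 (3 lower), of ZT6 and ZT10 (2 lower by day), of ZT14, ZT18 and ZT22 (0 at night) and LD ZT14 and LD ZT18 (1 rhythmic). Quantile normalisation gave 2 lower by day, and so did the fit with no replicate block, so that the paired times changed no other count by over 1.5 times. The F test over 6 times gave 0 rhythmic. Of 16 calls over all hours, 8 were kept without each single array and 7 under every alternative, of 7 day calls 5 and 1, and of 3 night calls 0.

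With single pools at most times, differences between neighbouring times have no replicate error beyond the ZT2 pair, and signals near 14.9, such as those of cry-dash, ddb2 and cry5 in DD, limit ratios.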
